A study of Rattus norvegicus with 32 samples.

Results

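The angiopoietin, Tie and VEGF genes are the ligands and receptors through which the lining of blood vessels is kept quiet or made to grow and leak. The group described here holds 10 genes, Angpt1, Angpt2, Tek, Tie1, Vegfa, Vegfb, Vegfc, Kdr, Flt1 and Pgf, of 34912 gene names on the array, and its members were chosen by name. They were read from 18 probes of 45598, found by an exact match of the gene symbol to the name in either version of the array annotation. All 10 genes and all 18 probes passed the filter on dim probes in both sexes, and 17 probes were well above background on every one of the 32 arrays. The faintest Angpt1 probe was the exception.

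Left ventricles came from male and female Wistar rats aged 9 to 12 weeks, collected 20 h after surgery. In each sex 5 rats had sham surgery, 5 had cecal ligation and puncture (CLP), a model of abdominal sepsis, and 6 had CLP followed by landiolol, a beta blocker of brief action that is selective for β1 receptors. Landiolol was infused from 1 h after CLP at 0.1 mg per kg per min, while sham and CLP rats received saline at a like volume, and no antibiotics were given. All rats had buprenorphine before surgery and heart imaging at 18 h, and the hearts were then perfused outside the body before they were frozen. Each rat gave 1 RNA sample and 1 single-colour array.

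The array signal is given as a log2 level after quantile normalisation within a sex, on which a difference of 1 means a factor of 2. Levels of different probes are not comparable with each other, because each probe has its own brightness. A gene was called, or passed, when its p adjusted over all probes kept was within a false discovery rate (FDR) of 1% for either comparison with sham, and within 5% when the treated septic rats were set against the untreated ones. The 2 comparisons with sham share their sham rats, and CLP vs sham and CLP plus landiolol vs CLP share the untreated CLP rats. A low CLP level thus lowers the value of CLP vs sham and raises that of CLP plus landiolol vs CLP. Males and females lay on different slides, so their levels were not compared, only their changes. In whole tissue, fewer cells of a type and less RNA per cell cannot be told apart.

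Angpt1, made mainly by cells around the vessels, activates Tek (also called Tie2), the receptor of endothelial cells that keeps junctions tight. Angpt2, stored and released by endothelial cells, competes with it and is known to rise in the blood in sepsis. Tie1 is the partner receptor of Tek and binds no angiopoietin by itself in most settings. Vegfa, the main permeability and growth factor of the family, signals through Kdr (VEGFR-2), while Flt1 (VEGFR-1) binds Vegfa tightly with weak signalling and also exists as a secreted decoy. Vegfb and Pgf bind Flt1 but not Kdr, and Vegfc acts mainly on lymphatic vessels.

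Angpt1, Flt1 and Vegfb had several probes whose place in the transcript bears on what follows, and the last 30 of their 60 bases are printed here from 5′ to 3′, as the files give them, with positions in rat build rn4. For Angpt1 they show that separate stretches of the gene were measured.
Angpt1 reported probe, chr7:78193836-78193895, minus strand: ctgggagaacaaagctattcatggttttaa
Angpt1 second probe, chromosome 7: agaagcaacttagcagagctaccaacaaca
Angpt1 faint probe, chr7:78191457-78191516, minus strand: ggcttttctaatatagtcaaatgtttcttc
The file places the second probe over a span of only 6 bases, so its position in the genome is left out. The reported and the faint probe are listed at bases 7309 and 9688 of 1 transcript record, and the second at base 961 of another. Which Angpt1 transcripts each probe reads was not tested.

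For Flt1 the 4 probes separate transcript variants, because the files match A_44_P151138 and A_44_P463262 to variant 2 alone, A_43_P12015 to variant 1 alone and A_64_P201730 to both.
Flt1 A_64_P201730, both variants, chr12:7957094-7957153, plus strand: atcactctgaaccttgtcatcaagaatgtg
Flt1 A_44_P151138, variant 2, chr12:7958826-7958885, plus strand: tgtcctgaagttttacctatggctctttgg
Flt1 A_44_P463262, variant 2, chr12:7960723-7960782, plus strand: gctcagacaagggtgcagaatatgtaagtg
Flt1 A_43_P12015, variant 1, chr12:8035639-8035698, plus strand: ttcaatcctcctgtgactccacgttagaga
The variant 2 probes lie 1732 and 3629 bases beyond the shared probe both in the genome and in the transcript, with no intron in between. The variant 1 probe lies 2352 bases beyond it in its transcript and 78545 bases beyond it in the genome. Whether variant 2 encodes the secreted form is not stated in the files, and only the female annotation gives its 2 probes the name Flt1.

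For Vegfb the probes differ in that the second one ends on a run of A after the hexamer AATAAA, which is in capitals and is the usual signal for adding a poly(A) tail.
Vegfb reported probe, chr1:209659244-209659672, minus strand: tgaatgcagaccaaaaagaaaggagagtgc
Vegfb second probe, chr1:209658298-209658357, minus strand: agagtatcaAATAAAacagggttccaaaaa
The hexamer, searched on the printed strand only, was found in 3 of the 18 probes, those of Vegfb, Pgf and Tek, and in 9.04% of all probes. The reported Vegfb probe spans 429 bases of the genome with 60 bases of sequence, so it crosses an intron.

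Angpt1 was the member with the largest change after CLP in both sexes. In females Angpt1 fell 3.76-fold in CLP and 3.39-fold in CLP plus landiolol against sham, and both falls passed the FDR. In males the fall in CLP was 2.99-fold and missed the 1% limit, and the level with landiolol lay between those of CLP and sham. No other member passed in CLP vs sham.

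Female sham rats had Angpt1 log2 levels of 10.78, 10.31, 10.69, 10.93 and 10.55. Female CLP rats had 9.16, 9.44, 9.07, 8.44 and 7.60, and CLP plus landiolol rats 8.20, 8.59, 9.61, 9.65, 8.89 and 8.42. Every septic female, treated or not, was below every sham female, and the CLP and landiolol groups overlapped over most of their range. The log2 fold change was -1.91 ± 0.34 (SE) for CLP vs sham (adjusted p = 0.0024), -1.76 ± 0.32 for CLP plus landiolol vs sham (adjusted p = 0.0023) and 0.15 ± 0.32 for CLP plus landiolol vs CLP (adjusted p = 0.94). Within the 2 female slides the fall in CLP was -1.73 and -2.01, and the fall with landiolol was -1.77 and -1.74.

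The female groups were not spread evenly over the rows of the slides, with all sham arrays in row 1, all landiolol arrays in row 2, and CLP arrays in both. The 3 female CLP arrays of row 1 had Angpt1 levels of 9.07 to 9.44, still below the lowest sham array, and the 2 of row 2 had 7.60 and 8.44. With the row as a term the change was -1.43 for CLP vs sham (adjusted p = 0.019) and -0.56 for CLP plus landiolol vs sham (adjusted p = 0.77), neither past 1%. For the landiolol comparison the row and the treatment can hardly be told apart, and the same term lowered the count over all probes from 1332 to 20.

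Male sham rats had Angpt1 log2 levels of 10.57, 10.56, 10.36, 11.05 and 10.30. Male CLP rats had 10.20, 10.15, 8.48, 7.93 and 8.19, and CLP plus landiolol rats 9.56, 9.85, 10.66, 10.28, 10.52 and 9.56. The male CLP group was thus split, with 2 rats just under the lowest sham rat and 3 far below it, and all 6 landiolol rats lay above those 3. The log2 fold change was -1.58 ± 0.41 for CLP vs sham (adjusted p = 0.015), 1.08 ± 0.39 for CLP plus landiolol vs CLP (adjusted p = 0.20) and -0.49 ± 0.39 for CLP plus landiolol vs sham (adjusted p = 0.48). The 95% interval of the last ran from -1.33 to 0.34. Within the male slides the difference between CLP and sham was -0.95 and -2.51, and that between landiolol and CLP was 0.42 and 2.06. Without CLP replicate 1 the male Angpt1 values became -1.89 for CLP vs sham (adjusted p = 0.0033) and 1.39 for landiolol vs CLP (adjusted p = 0.048), and both then passed. Without CLP replicate 2 the first was -1.87 (adjusted p = 0.0051). The array of CLP replicate 1 had the lowest median signal of its group before normalisation, 80.1 against 101 to 118 in the others. Male sham replicates 1 and 5 (77.1 and 74.8) and landiolol replicates 3 and 5 (74.99 and 49.2) were dimmer still. These landiolol rats had the highest Angpt1 levels of their group, 10.66 and 10.52. These sham rats had 10.57 and 10.30, the latter the lowest of the sham group. What part array signal had in the male Angpt1 values was not tested.

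**Figure D1:**
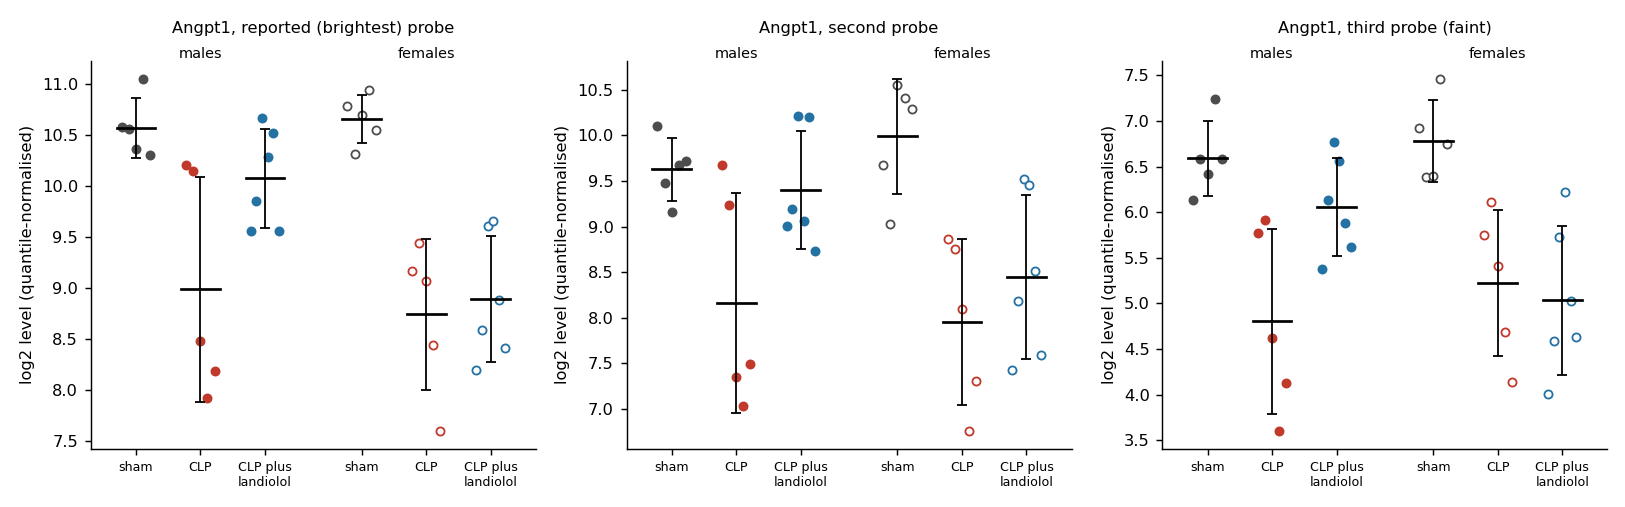
Log2 level of Angpt1 on the vertical axis in sham, CLP and CLP plus landiolol rats, for its 3 probes. Each point is 1 rat (filled, males; open, females), with the mean as a bar and the SD as whiskers. On the reported probe the means fall from 10.57 to 8.99 in males and from 10.65 to 8.74 in females with CLP, and with landiolol they are 10.07 and 8.89.

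Against sham, the other Angpt1 probes also had negative values in CLP rats. The second probe gave -1.47 ± 0.47 in male and -2.04 ± 0.48 in female CLP rats (adjusted p = 0.044 and 0.015), neither past 1%. The faint probe gave -1.78 ± 0.41 in males, which passed (adjusted p = 0.0072), and -1.56 ± 0.42 in females (adjusted p = 0.027). It was not well above background on 2 male CLP, 1 female CLP and 2 female landiolol arrays, where it has no firm level. In females with landiolol against sham the second probe gave -1.55 ± 0.46 (adjusted p = 0.038) and the faint one -1.75 ± 0.40 (adjusted p = 0.0093), so all 3 probes had negative values there. For landiolol against CLP in females they did not share a sign, with 0.49 on the second probe and -0.19 on the faint one. After group means were taken off, the Angpt1 probes correlated over the 16 arrays of a sex with r of 0.739 to 0.950.

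The change of Angpt1 with landiolol was 1.07 in males and 0.15 in females when all arrays were normalised together. The difference, female minus male, was -0.92, with a 95% interval from -1.99 to 0.15, and did not pass (adjusted p = 0.97). For CLP vs sham it was -0.38, from -1.50 to 0.74. Of the 10 members, 0 differed between the sexes in CLP vs sham and 0 in CLP plus landiolol vs CLP by limma, with 0 and 1 at an unadjusted p under 0.05. The member with the lower p was Tie1, with 0.34 in females and -0.25 in males (adjusted p = 0.97). Over all genes the share called was 0% in both comparisons, and 867 and 1217 of 24768 probes had an unadjusted p under 0.05. On the faint Angpt1 probe the difference for landiolol vs CLP was -1.45, from -2.63 to -0.26 (adjusted p = 0.97).

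Angpt2 was faint and varied widely between rats. Male levels ran from 5.41 to 7.53 with a median of 6.68 in sham, from 5.32 to 7.62 with a median of 7.49 in CLP, and from 5.92 to 8.08 with a median of 7.10 in CLP plus landiolol. Female levels ran from 6.28 to 8.19 in sham, from 6.49 to 8.07 in CLP and from 7.36 to 8.81 in CLP plus landiolol. The groups overlapped in every comparison. The log2 fold change for CLP vs sham was 0.42 in males, with an interval from -0.64 to 1.47, and -0.07 in females, from -0.87 to 0.74. These intervals leave room for sizeable changes in either direction. The value nearest to a change was that of female landiolol rats against CLP, 0.82 ± 0.36 (adjusted p = 0.50), and against sham it was 0.75 ± 0.36 (adjusted p = 0.20).

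Tek, the receptor of both angiopoietins, had narrow spreads. In males its mean log2 level was 12.74 ± 0.36 (SD, n = 5) in sham, 12.54 ± 0.29 (n = 5) in CLP and 12.90 ± 0.31 (n = 6) in CLP plus landiolol. In females it was 12.03 ± 0.39, 11.96 ± 0.41 and 12.25 ± 0.24 in the same order. The change in CLP was -0.20 in males and -0.06 in females, with intervals from -0.62 to 0.22 and from -0.52 to 0.40. Tie1 had male levels of 8.54 to 9.22 in sham, 8.03 to 8.89 in CLP and 8.01 to 8.74 in CLP plus landiolol. The male landiolol value against sham was -0.53 ± 0.17 (adjusted p = 0.065), and the female value was 0.05 ± 0.22. Female CLP rats stood close together for Tie1, from 7.91 to 8.21, within the sham range of 7.60 to 8.80.

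Vegfa did not pass in any comparison. Its male levels ran from 15.51 to 16.10 in sham, 15.04 to 16.29 in CLP and 15.39 to 16.53 in CLP plus landiolol. Female levels ran from 15.19 to 16.09, from 14.87 to 16.75 and from 14.94 to 15.88. In CLP the rats of a sex lay further apart than in sham, with an SD of 0.53 against 0.22 in males and of 0.76 against 0.33 in females, a difference in spread that was not tested. The log2 fold change in CLP was -0.16 in males (95% interval from -0.69 to 0.36) and -0.18 in females (from -0.83 to 0.46). The other Vegfa probes gave -0.25 and 0.17 in males and -0.56 and 0.07 in females, so they did not share a sign. Within the 2 female slides the reported probe gave -0.83 and 0.28, and the high value of CLP replicate 5, 16.75, was on the second. The array of that replicate also had the lowest median signal of its group before normalisation, 69.6 against 86.6 to 156.5. What part array signal had in the spread was not tested.

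Vegfb, the member linked to fatty acid handling and survival of heart muscle, had lower means in septic rats of both sexes, none of them past 1%. Female sham rats had log2 levels of 13.26, 13.23, 13.41, 13.48 and 13.44. Female CLP plus landiolol rats had 13.03, 12.58, 12.73, 13.15, 12.40 and 12.77, all below sham, and female CLP rats had 12.72, 13.32, 12.69, 12.56 and 13.14. The log2 fold change was -0.59 ± 0.16 with landiolol (adjusted p = 0.028) and -0.48 ± 0.17 in CLP (adjusted p = 0.096) against sham. In males the levels were 13.12 to 14.00 in sham, 12.72 to 13.36 in CLP and 12.92 to 13.78 in CLP plus landiolol. The male value was -0.65 ± 0.19 in CLP (adjusted p = 0.033) and -0.37 ± 0.18 with landiolol (adjusted p = 0.24). Significance analysis of microarrays (SAM) was the test used in the study, which did not compare landiolol with sham. Run here with 100 permutations, SAM called Vegfb in female landiolol vs sham at an FDR of 0.00595. Over the other settings tried, the limma adjusted p of Vegfb in that comparison reached 0.627.

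The second Vegfb probe, the one on the poly(A) signal, took 1 of 2 levels in each rat. On 15 arrays it lay between 6.51 and 7.49 and on 17 between 9.92 and 11.09, with no value in the gap of 2.44 between them. Rats of the high kind numbered 1 of 5, 3 of 5 and 2 of 6 in male sham, CLP and CLP plus landiolol, and 4 of 5, 3 of 5 and 4 of 6 in the female groups. Each group held both kinds. The split did not appear on the reported probe, whose median was 13.17 in the rats low on the second probe and 13.07 in the high ones. With group means taken off, the 2 probes had r of -0.42 in males and -0.11 in females, so the second probe was used for no comparison of groups. Its group differences had standard errors of about 1, and none passed.

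**Figure D2:**
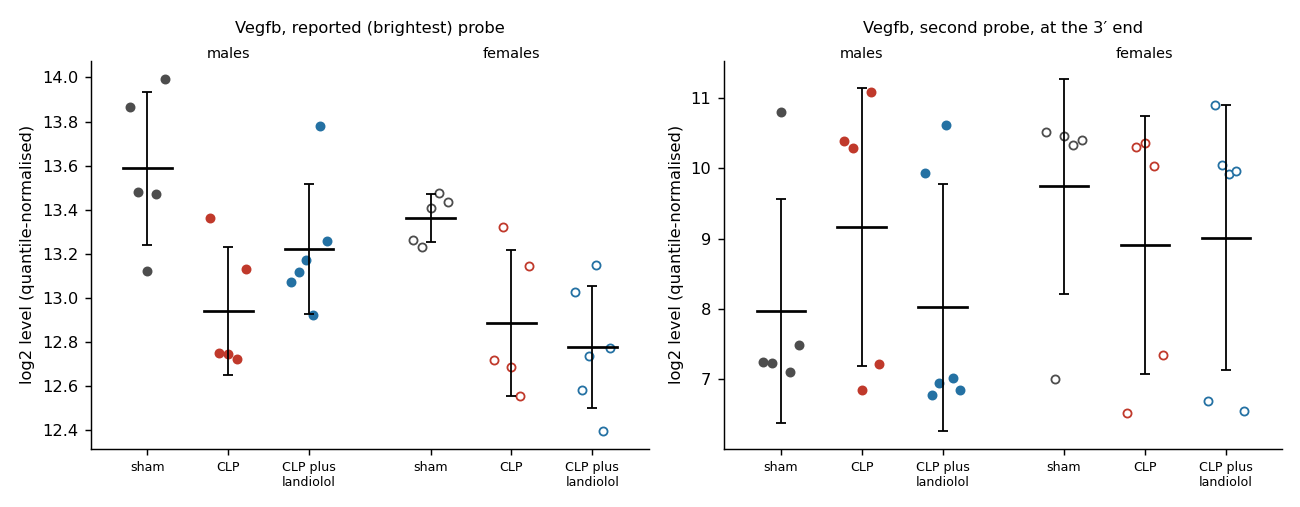
Log2 level of Vegfb on the vertical axis by group, for the reported probe (left) and the second probe (right). Each point is 1 rat (filled, males; open, females), with the mean as a bar and the SD as whiskers. On the right the rats of each group fall at about 7 or about 10, with none between 7.49 and 9.92, while on the left they form 1 cloud per group.

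Vegfc, the lymphatic growth factor, differed by less than the spread between rats in all comparisons. Its largest value was 0.30 ± 0.24, for female landiolol rats against sham, and in CLP it was -0.02 ± 0.17 in males and 0.03 ± 0.25 in females. Pgf, placental growth factor, had male levels of 10.06 to 11.29 in sham, 10.30 to 10.87 in CLP and 10.52 to 12.33 in CLP plus landiolol. The male landiolol value against CLP was 0.77 ± 0.29 (adjusted p = 0.21), with 1.30 and 0.20 on the 2 slides. In females Pgf gave 0.06 ± 0.40 in the same comparison, with mean levels of 10.44 ± 0.72 (SD, n = 5) in CLP and 10.496 ± 0.47 (n = 6) with landiolol.

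Kdr, the main signalling receptor of Vegfa, had higher means in septic rats of both sexes, and its rise passed in females given landiolol. Female sham rats had log2 levels of 13.34, 13.39, 14.10, 13.63 and 13.74, and female CLP plus landiolol rats had 14.37, 14.46, 14.70, 14.58, 14.57 and 14.38. These groups did not overlap, and Kdr rose 1.83-fold (log2 fold change 0.87 ± 0.20, adjusted p = 0.0084). Female CLP rats had 14.16, 13.81, 14.71, 13.74 and 14.74, spread from within the sham range to the top of the landiolol range (0.59 ± 0.20 against sham, adjusted p = 0.084). Within the female slides the landiolol value was 0.82 and 0.96, and the CLP value was 0.05 and 1.03. The landiolol value lay just inside 1%, and it missed the limit when the slide was a term (0.86, adjusted p = 0.011), with 75th percentile scaling (0.77, adjusted p = 0.019) and when any single 1 of 11 of the 16 arrays was left out. With the row as a term it was 0.86 (adjusted p = 0.46).

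In males Kdr had 13.56 to 14.01 in sham, 13.78 to 14.49 in CLP and 14.04 to 14.49 in CLP plus landiolol. The landiolol group was again above every sham rat, with a log2 fold change of 0.53 ± 0.14 (adjusted p = 0.024), and the CLP value was 0.39 ± 0.14 (adjusted p = 0.079). Neither passed 1%. Landiolol against CLP was 0.14 ± 0.14 in males and 0.28 ± 0.20 in females (adjusted p = 0.66 and 0.71).

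No Flt1 probe passed in any comparison. On the shared probe the male levels were 8.74 to 9.79 in sham, 9.05 to 10.13 in CLP and 9.31 to 9.86 in CLP plus landiolol, and the CLP value was 0.63 ± 0.22 (adjusted p = 0.060). In females the shared probe gave 0.53 ± 0.26 in CLP (adjusted p = 0.25) and 0.72 ± 0.25 with landiolol (adjusted p = 0.074). The reported probe of variant 2 gave 0.29 ± 0.25 in male and 0.40 ± 0.35 in female CLP rats, and the other variant 2 probe gave 0.43 ± 0.18 and 0.30 ± 0.31. The variant 1 probe gave 0.16 ± 0.13 and -0.13 ± 0.18, with 95% intervals from -0.12 to 0.43 and from -0.52 to 0.26. The differences between probes were not tested. From rat to rat the shared probe went with the variant 2 probe A_44_P151138 (r of 0.85 in males and 0.88 in females over 16 arrays, group means taken off) and had r of 0.26 and -0.13 with the variant 1 probe.

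**Figure D3:**
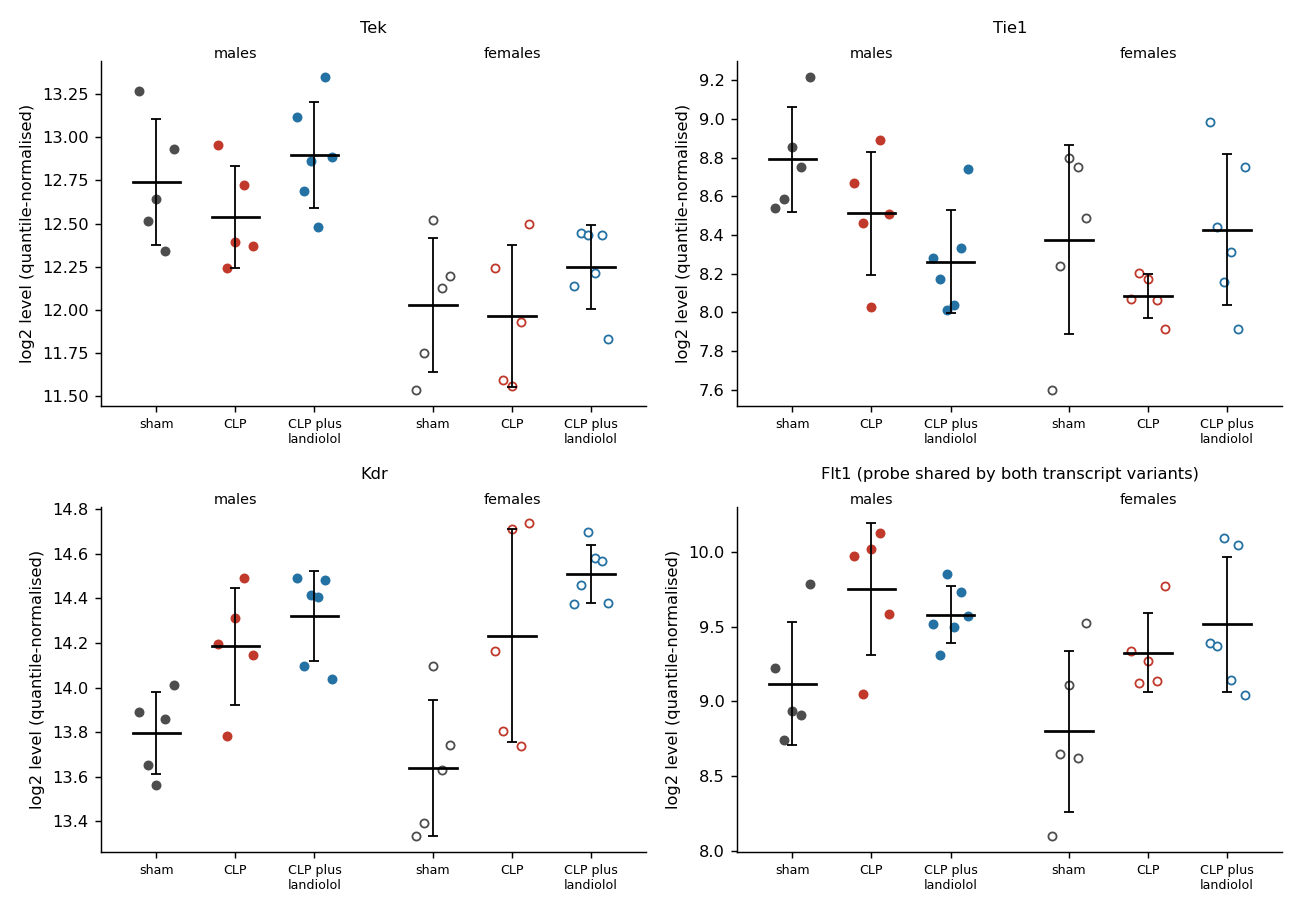
Log2 levels of the receptors Tek, Tie1, Kdr and Flt1 on the vertical axis by group. Each point is 1 rat (filled, males; open, females), with the mean as a bar and the SD as whiskers. The Kdr points of the landiolol groups lie above all sham points in both sexes, while Tek and Tie1 groups overlap.

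Counted over the 10 members, read from the brightest probe of each gene, CLP vs sham gave 0 calls in males by limma, with 3 at an unadjusted p under 0.05 and 1, Angpt1, by SAM. Over all genes read the same way 8.22% were called in that comparison. Of the 25864 probes kept, 7445 had an unadjusted p under 0.05 there. In females CLP vs sham gave 1 call, Angpt1, where 3.78% of all genes were called. CLP plus landiolol vs sham gave 0 calls in males, with 2 at an unadjusted p under 0.05 and 0 by SAM, against 4.39% of all genes. There 6267 of 25864 probes kept had an unadjusted p under 0.05. In females it gave 2 calls, Angpt1 lower and Kdr higher, against 5.49%. In that comparison 762 probes of all those kept rose and 570 fell, and with 75th percentile scaling 578 rose and 747 fell. Under that scaling Angpt1 was still called, and Kdr was not (0.77, adjusted p = 0.019). CLP plus landiolol vs CLP gave 0 calls in males and 0 in females by limma and by SAM, with 2 and 1 at an unadjusted p under 0.05, against 1.62% and 0.0873% of all genes. At that unadjusted p were 3826 of 25864 probes kept in males and 2372 of 25394 in females.

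The groups did not overlap for 1 member in CLP vs sham in each sex, Angpt1, where 12.8% of all genes in males and 8.61% in females were so separated. In CLP plus landiolol vs sham the groups were separate for 1 member in males, Kdr, against 8.14% of all genes, and for 3 in females, Angpt1, Vegfb and Kdr, against 10.2%. The median log2 fold change of the 10 members was -0.18 in male and -0.06 in female CLP rats, beside 0.00 and -0.02 over all genes.

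**Figure D4:**
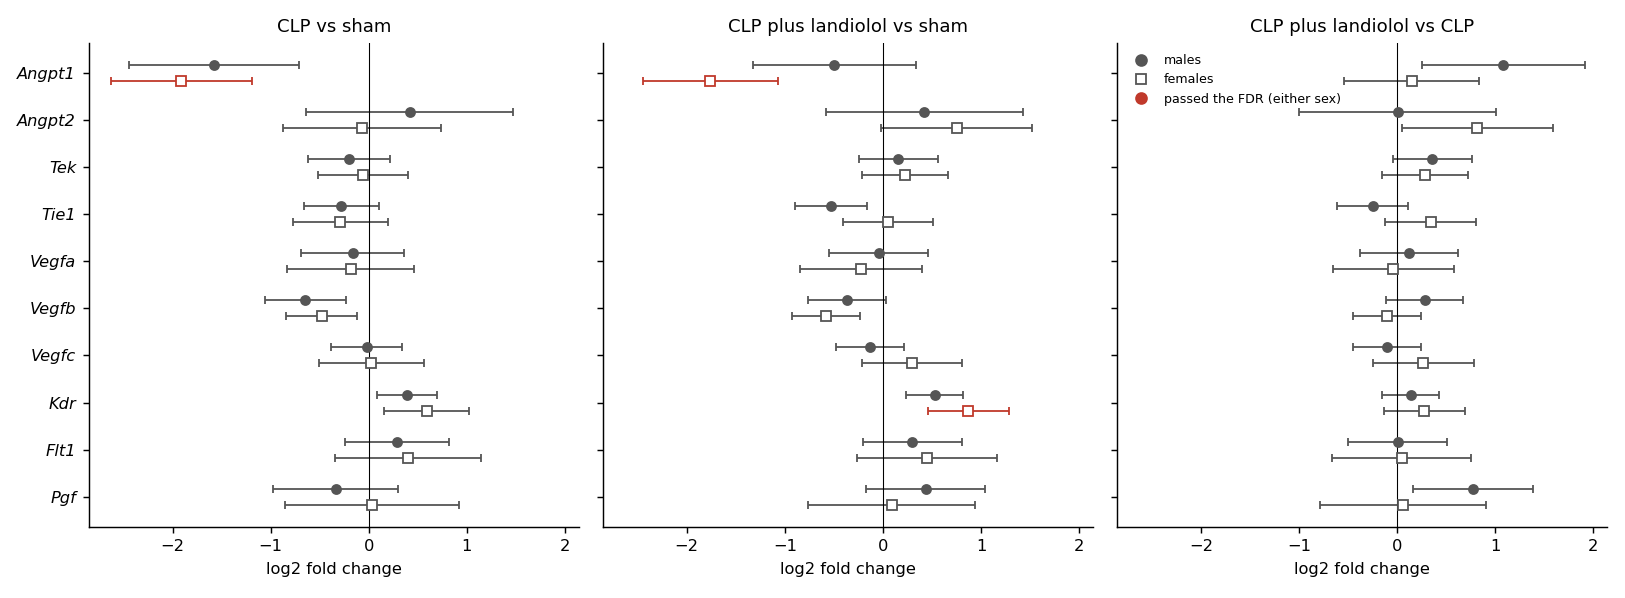
Log2 fold change of the 10 members, each by its reported probe, on the horizontal axis, in 3 comparisons. Points are estimates and bars 95% intervals from limma (circles, males; squares, females), and red marks the values that passed the FDR. Red are Angpt1 in 2 female comparisons and Kdr in female landiolol rats against sham, while most other intervals include 0.

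Genes that work with these ligands and receptors were taken from fixed lists. All female sham arrays lay in row 1 and all female landiolol arrays in row 2. Row and treatment can therefore hardly be told apart in that comparison for the list genes either. With the row as a term, 20 probes of all those kept passed there, 19 higher and 1 lower, beside 1332 without it. The values of list genes given here are without that term. Of 12 partners tested, 4 fell in male CLP rats, namely Sema3c, Nrp1, Plxnd1 and Nrp2, and 0 rose. Over all genes 4.27% were called lower and 3.94% higher in that comparison, and 1.88% and 1.9% in female CLP rats. With landiolol against sham 1.88% of all genes were lower and 2.51% higher in males, and 2.37% and 3.12% in females. Nrp1 and Nrp2 are neuropilins, co-receptors of VEGF and of semaphorins, Sema3c is a semaphorin, and Plxnd1 is a semaphorin receptor of endothelial cells. Sema3c fell in all 4 comparisons with sham, with log2 fold changes of -1.55 in male and -1.25 in female CLP rats (adjusted p = 0.00014 and 0.0015), and of -1.21 and -1.15 with landiolol. Plxnd1 fell in CLP (-1.38 in males and -1.22 in females), and with landiolol it stood at -0.69 and -0.56 against sham, which did not pass. Nrp1 fell in male CLP rats (-1.42) and was at -1.03 in females (adjusted p = 0.064), and Nrp2 gave -0.96 and -1.01 (adjusted p = 0.0011 and 0.054). The median over the 12 partners was 0.10 in male and 0.17 in female CLP rats. The highest value of the list was a rise that did not pass, 1.67 in males and 1.43 in females. In CLP vs sham 8 of the 12 had an unadjusted p under 0.05 in males and 7 in females. Over all probes kept these were 7445 of 25864 in males and 5858 of 25394 in females. Ptprb, the endothelial phosphatase that removes the activating phosphates of Tek, rose in female landiolol rats (1.06 ± 0.24, adjusted p = 0.0085), and gave 1.06 ± 0.28 in males (adjusted p = 0.025). Its CLP values were 0.88 and 0.90. In females 2 of 12 partners fell and 0 rose in CLP vs sham, and 1 fell and 1 rose with landiolol against sham.

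Of 18 genes tested of signalling below the receptors, 2 fell and 0 rose in male CLP rats, beside 4.27% and 3.94% of all genes. In females 0 passed, and 3 had an unadjusted p under 0.05, beside 5858 of 25394 probes kept. Those that fell in males were Prkca, a protein kinase C isoform (-0.90), and Sh2d2a, an adaptor that binds Kdr (-1.15). In the landiolol groups against sham Prkcb, another protein kinase C isoform, rose in both sexes (1.04 ± 0.20 in males and 1.097 ± 0.25 in females), the adaptor Shb fell in males (-0.88) and Pxn, a focal adhesion protein, rose in females (0.88 ± 0.15). In landiolol vs CLP none of these lists had a call in either sex by limma.

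Among 14 genes known to be induced by VEGF in endothelium, the apelin ligand Apln had the largest change of the list in each comparison with sham. Apln fell in male and female CLP rats (-2.45 and -2.86, adjusted p = 0.000106 and 0.00019), and with landiolol (-2.29 and -3.49). Its receptor Aplnr fell in male CLP rats (-1.75) and was at -1.33 in females (adjusted p = 0.024). In male CLP rats 2 of the 14 fell and 0 rose, beside 4.27% and 3.94% of all genes. In female CLP rats 1 fell and 0 rose, beside 1.88% and 1.9%. With landiolol against sham 1 fell and 0 rose in each sex. The shares of all genes there were 1.88% and 2.51% in males and 2.37% and 3.12% in females. The medians of the list were -0.42 in male and -0.05 in female CLP rats.

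Of 21 genes of the hypoxia response, 2 rose and 1 fell in male CLP rats, beside 3.94% and 4.27% of all genes. In females 0 passed, and 7 had an unadjusted p under 0.05, beside 5858 of 25394 probes kept. Bnip3, a mitochondrial protein induced by low oxygen, rose by 1.35 on the log2 scale in male CLP rats and by 1.69 and 1.78 in male and female landiolol rats against sham. Ddit4, an inhibitor of mTOR, rose by 1.65 in male CLP rats. Egln1, the oxygen sensor that marks HIF for removal, fell in male CLP rats (-0.59) and in the male and female landiolol groups (-0.63 and -0.79). Vegfa, itself a target of HIF, passed in none of these comparisons.

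**Figure D5:**
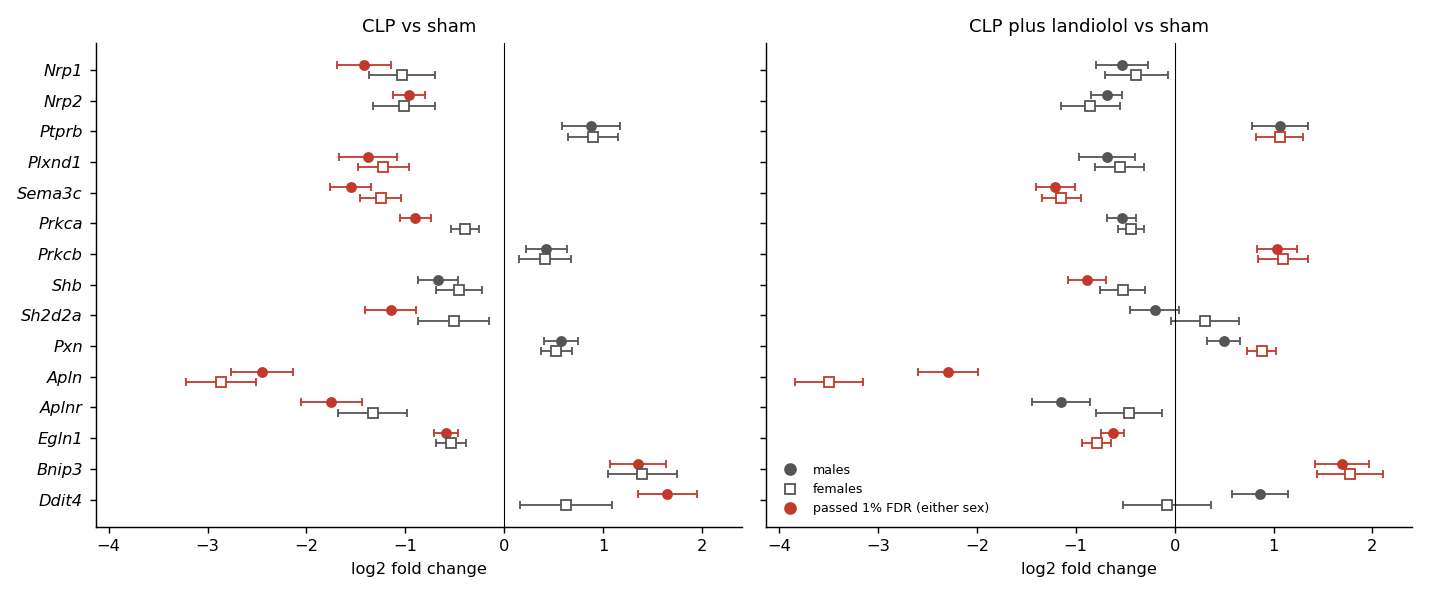
Log2 fold change against sham, on the horizontal axis, of the listed pathway genes that passed in at least 1 comparison, in CLP (left) and CLP plus landiolol (right). Points are estimates and bars standard errors (circles, males; squares, females), and red marks values that passed 1% FDR. Sema3c and Apln are red and to the left of 0 in both sexes and both panels. For females in the right panel, treatment and slide row can hardly be told apart.

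Marker genes of the cells that carry these receptors were present throughout. Beside the counts of this and the next lists, 4.27% of all genes were called lower and 3.94% higher in male CLP rats. For female CLP rats these shares were 1.88% and 1.9%. At an unadjusted p under 0.05 were 7445 of 25864 probes kept in male and 5858 of 25394 in female CLP vs sham. In landiolol vs sham these were 6267 of 25864 in males and 6774 of 25394 in females. Of 16 endothelial markers 15 were tested, with Pecam1, Vwf and Cdh5 the brightest, and 1, Emcn, a surface mucin of capillaries and veins, fell in CLP (-1.08 in males and -1.34 in females). The mean level of the endothelial list per array was 11.10 to 11.59 in male sham and 11.20 to 11.84 in male CLP rats, and 10.69 to 11.61 and 10.84 to 11.48 in the female groups, so sham and CLP overlapped in both sexes. With landiolol the list ran from 11.34 to 11.76 in males and from 11.18 to 11.48 in females. In female landiolol rats against sham, the comparison in which Kdr passed, 0 of the 15 markers passed by limma, where 5.49% of all genes were called. Of the 15, 6 had an unadjusted p under 0.05, and the median of the list was 0.29. Its mean level was 11.08 ± 0.35 (SD, n = 5) in sham and 11.35 ± 0.13 (n = 6) with landiolol, and its part in the Kdr value was not tested. Sox17 was well above background on 3 of 32 arrays. The 9 cardiomyocyte markers were bright, with Myh6 and Myl2 the brightest, and 0 passed in CLP vs sham by limma, with 1 in each sex at an unadjusted p under 0.05.

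The pericyte and smooth muscle list averaged 10.71 to 11.58 per array in male sham and 10.19 to 10.82 in male CLP rats, and 10.36 to 11.001 and 10.36 to 10.89 in the female groups. Of its 9 genes 0 passed in male CLP rats by limma, with 4 at an unadjusted p under 0.05, and 1 passed in females, the pericyte gene Rgs5 (-0.91). In landiolol vs sham 0 passed in either sex, with 3 in each at an unadjusted p under 0.05. Over all genes 4.39% were called there in males and 5.49% in females. Kcnj8 rose in male landiolol vs CLP (0.78 ± 0.17, adjusted p = 0.032), where 0.902% of all genes were called higher. Of 7 fibroblast markers 3 fell in male CLP rats, Col1a1 (-2.11), Lum (-1.89) and Col1a2 (-1.34), and Tcf21 rose (1.25 ± 0.26). In females 0 passed, with 6 at an unadjusted p under 0.05 and a list median of -0.71. Macrophage and monocyte markers rose in CLP, 4 of 7 in males and 3 of 7 in females, led by Adgre1 (2.79 in each sex), and the list averaged 8.86 to 9.32 per array in male sham against 9.75 to 10.55 in male CLP rats, and 8.92 to 9.34 against 9.71 to 10.52 in females. Of the neutrophil list only S100a8 and S100a9 of 7 were tested, and they were kept through the septic groups, where they are bright. S100a8 was well above background on 0 of 5 male and 1 of 5 female sham arrays and on all 22 septic arrays, so sham holds no firm level to set it against. The list averaged 3.02 to 3.82 in male sham against 5.64 to 8.52 in male CLP rats, while Elane and Ngp were well above background on 0 and Mpo on 1 of the 32 arrays. Of 4 platelet and 4 lymphatic markers tested, 0 passed in CLP vs sham by limma, with 2 and 0 in males and 1 and 2 in females at an unadjusted p under 0.05. What part these shifts had in the values of Angpt1 and the other members was not tested.

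Likeness of pattern was taken across rats after the group means were removed. The 3 genes whose pattern was most like that of Tek, by the lower of the 2 within-sex correlations over 16 arrays among 12861 genes, were Nrp1 (0.928), Fgfr1 (0.920) and Podxl (0.917). For Vegfa they were Sppl2b (0.853), Sfswap and Sipa1 (both 0.840). For Angpt1 they were Fam161b (0.826), Kcnj3 (0.814) and an unnamed locus, LOC102547502 (0.809), and for Angpt2 Selenos (0.768), Clec19a (0.741) and Huwe1 (0.734). These are the top of a long ranking on few arrays and share array brightness and tissue make-up, so they are given as a description.

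Among the 45 pairs of members, 6 had r of at least 0.5 in both sexes once group means were taken off, and each of them joined genes out of Tek, Vegfa, Vegfc, Kdr and Flt1. Tek went with Vegfc (0.81 in males and 0.82 in females), with Vegfa (0.82 and 0.69) and with Flt1 (0.73 and 0.70). Vegfa went with Flt1 (0.59 and 0.59) and with Kdr (0.51 and 0.68), and Kdr with Flt1 (0.66 and 0.60). Flt1 was read here from its reported probe, of variant 2, which had r of 0.13 and -0.24 with the variant 1 probe. Neither angiopoietin was in any such pair, and Angpt1 and Angpt2 had r of -0.475 in males and -0.537 in females with each other. In males Angpt2 had r of -0.67 with Tek, -0.71 with Vegfa, -0.82 with Vegfb, -0.81 with Vegfc and -0.61 with Flt1. In females these were -0.11, 0.01, -0.30, -0.46 and 0.03. Array brightness and tissue make-up are shared by all members of an array, so these correlations too are given as a description.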

How the data were processed

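Left ventricular RNA of 32 rats was measured on single-colour Agilent rat arrays. The authors deposited the scanner output made with Agilent Feature Extraction, whose version is 10.5 per the submitters' processing notes, in which each spot has a background-subtracted processed intensity. A second deposited table holds the authors' quantile-normalised log2 values for probes past an 80% filter, which they tested with SAM. Its columns run the same way as the scanner values, but any offset used ahead of the log2 step is unknown. Of 58717 spots that were not controls, 34920 to 43155 per array were well above background and 0 were saturated. The number of arrays limits the precision.

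Outlier spots were dropped (213 probe values were missing as a result), the log2 of the processed intensity was averaged over spots of a probe, and quantile normalisation ran over the 16 arrays of each sex. A probe needed a signal well above background in 80% of the arrays of some group, which left 25864 in males and 25394 in females. Groups were compared with limma 3.58.1 in R 4.3.3, in a model of the 3 groups of a sex, with Benjamini-Hochberg adjustment over all probes kept. The sexes were compared by an interaction on all arrays normalised together at an FDR of 5%. A gene was read from its probe with the highest mean over all arrays, and names came from the files.

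Among the other settings tried were 75th percentile scaling, a normexp background with an offset of 50, other filters, slide or row as a term, both sexes normalised together, only the groups compared, the deposited table, SAM with 100 drawn permutations, exchanged FDR levels, any probe of a gene, and leaving out each array. The scripts were tested on simulated data.

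The members, the gene lists and the tests were chosen with earlier results of these data known. Named genes were all members, up to 4 genes per pathway list that passed with the largest changes, the brightest and the called markers, and the 3 genes most like Angpt1, Angpt2, Tek and Vegfa. Nrp2 and Pxn fall outside this rule and were named after their values were seen.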

Additional observations from a re-analysis of the deposited data

Results flagged for a closer look

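In 4 of the 60 sets of member values, 1 set for each member in each group, a single rat lay far from the others of its group by Dixon's criterion, which chance meets in about 1 of 20 sets. In male CLP replicate 1 Angpt2 was at a log2 level of 5.316, with the next rat at 7.311. By the reported probes this rat had the highest Angpt1, Tek, Vegfa, Vegfb, Vegfc and Flt1 levels of its group. Its array had the lowest median signal of the group before normalisation, 80.1 against 101 to 118 in the others. Pgf was at 8.768 in female sham replicate 1, with the next rat at 10.49, and at 10.06 in male sham replicate 4, with the next at 10.95. Vegfa was at 16.53 in male CLP plus landiolol replicate 5, with the next rat at 15.75. The array of that replicate had the lowest median signal of all 32, 49.2. What part array signal had in these values was not tested. No member moved one way in every male and the other way in every female, over the 30 pairs of a member and a comparison looked at.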

How the results depend on the processing

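No paired analysis applied, because each array was a different rat in a single group, and the replicate numbers used here only name the arrays. The count of members called in male CLP vs sham was 0, and it was 1 with SAM, 1 when any probe of a gene counted (Angpt1 in both), 2 at an FDR of 5% (Angpt1 and Vegfb), and 0 to 1 when 1 array was left out, with 1 without CLP replicate 1 or 2. In male CLP plus landiolol vs CLP it ranged from 0 to 1 when 1 array was left out, with 1 only without CLP replicate 1. In male CLP plus landiolol vs sham it was 0, and 1 (Kdr) at 5%. In female CLP vs sham it was 1 under every alternative except a term for slide row, where it was 0. In female CLP plus landiolol vs sham it was 2, and 1 with 75th percentile scaling, without a filter, with the slide as a term and in the deposited table, Angpt1 in each case, 0 with the row as a term, and 1 to 2 when 1 array was left out, with 1 after omitting sham replicate 1, 2, 4 or 5, CLP replicate 1 or any landiolol array. SAM and an FDR of 5% each gave 3, with Vegfb. The counts of members that differed between the sexes were 0 under every alternative. Of the member values with an unadjusted p under 0.05, none changed sign under any alternative. Of the other 65 values, 26 changed sign under at least 1 alternative, the largest of these being 0.36 in size. The male Vegfb value for landiolol vs sham was among the 65 and changed sign under 0 of 26 alternatives. With 5 or 6 rats per group, the data leave room for changes of any size within the intervals given for the faint or variable members.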
